A study of Mus musculus with 6 samples.

Results

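The 10 genes described here encode the CD8 co-receptor and the first signalling components of the T cell receptor. They were listed by the role of the encoded proteins, with earlier results of these data known, and are Cd8a, Cd8b1, Cd3d, Cd3e, Cd3g, Cd247, Lck, Zap70, Lat and Cd5. All 10 were among the 28773 genes listed in each sample and among the 12444 that were abundant enough to be tested. RNA was sequenced from CD8+ T cells that had been isolated with a commercial kit from the spleens of female tumor-bearing mice. In both groups the primary tumor was removed by microwave ablation (MWA), in which heat destroys the tissue, and spleens were taken on day 35. The 3 MWA+PBS samples came from mice injected with the PBS vehicle after ablation. The 3 MWA+2DG samples came from mice injected into the peritoneum with 2-deoxy-D-glucose (2DG), a glucose analogue that blocks glycolysis, with the last injection several days before the spleens were taken. The labels do not give the strain, the age or the tumor of these samples, and do not say whether each sample is 1 animal, so the p-values measure the spread between these samples, which may be technical.

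The T cell receptor binds peptide presented on MHC but has no signalling domain of its own. CD8, a dimer of an alpha and a beta chain, binds MHC class I and carries the kinase Lck to the receptor. Lck phosphorylates motifs in the CD3 chains and in the zeta chain that Cd247 encodes, Zap70 docks on these motifs, and Zap70 then phosphorylates the membrane adaptor Lat, on which the downstream signalling complex is built. Cd5 is a surface protein that dampens receptor signalling.

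Cd8a and Cd8b1 lie on chromosome 6, and Cd3g, Cd3d and Cd3e on chromosome 9, with 0 coding genes between neighbours in the RefSeq annotation of GRCm38.p6. The RefSeq promoter table of that build matched 9 of the 10 genes, with 12 start sites in all, and Cd8b1 had no entry. The 250 bases before the start are shown for the 3 clustered CD3 genes and for Cd8a, which had the largest difference, each 5′ to 3′ on the strand of the gene. Capitals mark the letters AGGAAG (an ETS core), TGTGGT (a RUNX core) and CAGGTG (an E-box), read on either strand.
Cd3d, chr9:44981536-44981785, plus strand: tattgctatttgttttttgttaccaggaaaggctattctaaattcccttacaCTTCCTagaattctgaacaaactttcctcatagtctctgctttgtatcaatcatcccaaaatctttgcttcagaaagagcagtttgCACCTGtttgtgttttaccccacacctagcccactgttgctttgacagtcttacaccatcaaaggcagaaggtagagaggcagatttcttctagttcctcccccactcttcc
Cd3g, chr9:44980432-44980681, minus strand: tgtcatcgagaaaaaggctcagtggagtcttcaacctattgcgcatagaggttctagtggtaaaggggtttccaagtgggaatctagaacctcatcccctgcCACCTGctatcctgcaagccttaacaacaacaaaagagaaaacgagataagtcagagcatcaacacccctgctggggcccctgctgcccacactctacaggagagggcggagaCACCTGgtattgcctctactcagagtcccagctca
Cd3e, chr9:45009612-45009861, minus strand: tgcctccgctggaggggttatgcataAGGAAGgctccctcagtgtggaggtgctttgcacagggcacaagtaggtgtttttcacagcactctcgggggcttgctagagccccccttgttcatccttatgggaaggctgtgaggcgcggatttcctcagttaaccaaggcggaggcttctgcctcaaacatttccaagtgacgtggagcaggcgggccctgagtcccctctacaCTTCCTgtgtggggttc
Cd8a, chr6:71373177-71373426, plus strand: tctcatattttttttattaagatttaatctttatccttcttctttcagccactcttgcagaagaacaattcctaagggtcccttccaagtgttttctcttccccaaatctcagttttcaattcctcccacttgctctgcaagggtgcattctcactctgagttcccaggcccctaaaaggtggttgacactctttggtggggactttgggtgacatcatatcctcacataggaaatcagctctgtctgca
AGGAAG occurred in 9 of the 12 windows, from 7 of the 9 genes, against 29.5% of all 32851 RefSeq windows of this length. CAGGTG occurred in 7 windows from 6 genes, against 17.2% of all windows, and TGTGGT in 2 windows from 2 genes, against 14.0%. The GC box GGGCGG was in 2 of the 12 windows and in 32.7% of all windows, and TATAAA was in 0 and in 12.4%. CAGGTG and TGTGGT can share letters at their ends, some genes contributed more than 1 start site, and the Cd8a window held none of the letters searched. The matches describe the sequence only, and binding was not measured.

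All 10 genes were higher in MWA+2DG than in MWA+PBS. Values are in FPKM, the fragments of a gene divided by its transcript length and by all fragments mapped in that sample, so levels can be compared between genes. The sum over the 10 genes was 1127 to 1182 FPKM in the MWA+PBS samples and 1584 to 1682 FPKM in the MWA+2DG samples. This was 0.375% to 0.384% of each MWA+PBS total and 0.535% to 0.575% of each MWA+2DG total. Tested with limma on log2(FPKM + 1), 10 genes passed an adjusted p of 0.05 as higher and 0 as lower, where 22.3% of all tested genes passed as higher and 17.1% as lower. After T lineage scaling, in which the mean log2 level of 12 other T lineage genes (Trat1 among them) is set equal across samples, 5 passed as higher, where 9.75% of all tested genes did and 37.3% passed as lower. For all 10 genes the 3 MWA+2DG samples lay above the 3 MWA+PBS samples, which was the case for 30.2% of tested genes. The median log2 fold change was 0.39 over the 10 genes and 0.05 over all tested genes, with a range of 0.27 to 0.66. In bulk RNA, more cells of a type and more RNA of a gene per cell cannot be told apart.

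**Figure D1:**
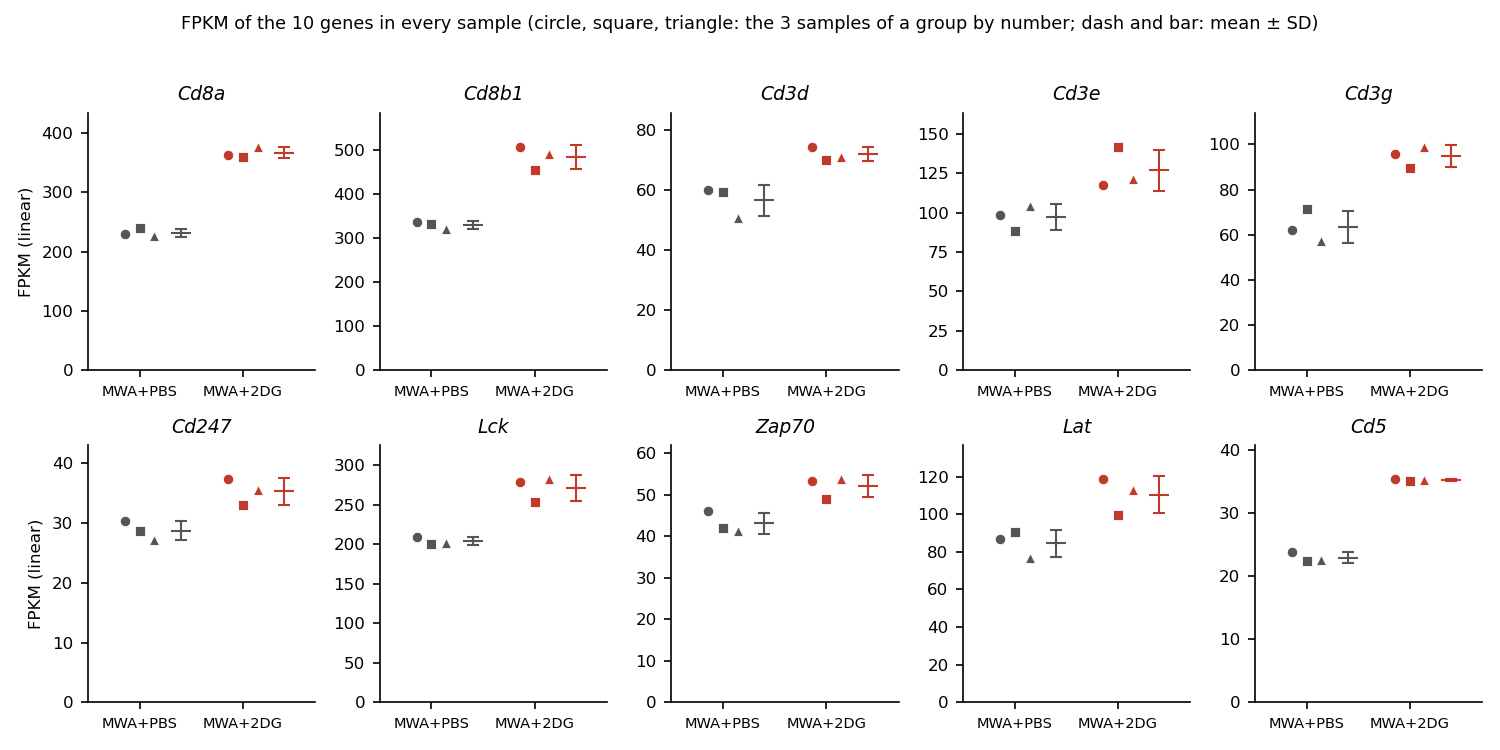
FPKM on a linear axis from 0 for each of the 10 genes, with 1 point per sample (grey MWA+PBS, red MWA+2DG) and the mean ± SD of 3 samples beside them. In every panel the 3 red points lie above the 3 grey points.

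The co-receptor genes were the most abundant of the 10. Cd8a (ENSMUSG00000053977), the alpha chain, was at 229.5, 239.3 and 225.8 FPKM in the MWA+PBS samples and at 363.1, 359.0 and 377.1 FPKM in the MWA+2DG samples. The gap between the groups was far wider than the spread within either. Its means of 231.5 ± 6.96 and 366.4 ± 9.47 FPKM (SD, n = 3) differed by 1.58-fold, or on the log2 scale by 0.66 (SE 0.05, adjusted p = 8.94e-05 in limma), the largest of the 10. Cd8b1 (ENSMUSG00000053044), the beta chain, was at 335.5, 332.7 and 319.8 FPKM in the MWA+PBS samples and at 507.5, 454.3 and 490.4 FPKM in the MWA+2DG samples. The MWA+2DG samples were the more scattered, and even the lowest of them stood above all MWA+PBS samples. The log2 difference of Cd8b1 was 0.55 (SE 0.06, adjusted p = 0.000443 in limma). The beta chain transcript exceeded the alpha chain transcript in all 6 samples, with a log2 ratio of Cd8a to Cd8b1 between -0.55 and -0.34.

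The CD3 chains form the signalling module around the receptor. Cd3g (ENSMUSG00000002033), the gamma chain, was at 62.0, 71.3 and 57.0 FPKM in the MWA+PBS samples and at 95.7, 89.5 and 99.1 FPKM in the MWA+2DG samples. It had the largest change of the 3 chains, 0.58 ± 0.09 on the log2 scale (SE, limma adjusted p = 0.0017). Cd3d (ENSMUSG00000032094), the delta chain, was at 59.9, 59.2 and 50.6 FPKM in the MWA+PBS samples and at 74.5, 70.1 and 71.1 FPKM in the MWA+2DG samples. MWA+PBS replicate 3 was low relative to the others of its group, and its log2 fold change was 0.34 (SE 0.07, adjusted p = 0.0086 in limma). Cd3e (ENSMUSG00000032093), the epsilon chain, was at 98.9, 88.7 and 104.4 FPKM in the MWA+PBS samples and at 117.5, 142.1 and 121.3 FPKM in the MWA+2DG samples. Replicate 5 of MWA+2DG was its highest sample, although the same sample was the lowest of its group for the other 9 genes. The log2 fold change of Cd3e was 0.38 (SE 0.09, adjusted p = 0.0139 in limma), with the widest standard error of the 10. Without the filter on low values it did not pass, at a limma adjusted p of 0.0502. After T lineage scaling Cd3e was at 0.15 (limma adjusted p = 0.246) and Cd3d at 0.12 (limma adjusted p = 0.182), and with Trat1 left out of that reference at 0.0277 and -0.00345.

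An antisense transcript, Gm48719, overlaps Cd3e on the opposite strand. It was at 28.3, 30.1 and 33.6 FPKM in the MWA+PBS samples and at 39.9, 38.4 and 38.2 FPKM in the MWA+2DG samples, with a limma log2 fold change of 0.33 (SE 0.07, adjusted p = 0.00768 in limma). The libraries marked the strand, but the sources used here do not say whether the quantification used it, so reads of Cd3e and Gm48719 cannot be told apart. Cd247 overlaps Pou2f1 on the opposite strand, at a mean of 6.30 FPKM with PBS and 7.80 FPKM with 2DG. Genes overlapping Lck, Zap70 and Lat had means under 3 FPKM.

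Cd247 (ENSMUSG00000005763), the zeta chain, carries most of the phosphorylation motifs of the complex. It was at 30.3, 28.6 and 27.1 FPKM in the MWA+PBS samples and at 37.3, 32.9 and 35.4 FPKM in the MWA+2DG samples. Here the groups were separated by less than the width of the MWA+2DG group. The log2 fold change was 0.29 (SE 0.07, adjusted p = 0.0119 in limma). T lineage scaling took it to 0.0650 (limma adjusted p = 0.409), and to -0.0544 without Trat1. In MWA+PBS, Cd247 was lower than each CD3 chain, and this order held in MWA+2DG.

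The log2 fold changes of the kinases and the adaptor were below those of the co-receptor genes, without a test of that difference. Lck (ENSMUSG00000000409), the kinase that CD8 carries, was at 209.4, 199.9 and 202.0 FPKM in the MWA+PBS samples and at 278.7, 252.9 and 282.8 FPKM in the MWA+2DG samples. Its log2 fold change was 0.41 (SE 0.06, adjusted p = 0.00171 in limma). Zap70 (ENSMUSG00000026117), the kinase that docks on the phosphorylated chains, was at 46.0, 42.02 and 41.2 FPKM in the MWA+PBS samples and at 53.4, 49.0 and 53.8 FPKM in the MWA+2DG samples. It had the smallest change of the 10, 0.27 ± 0.06 on the log2 scale (SE, limma adjusted p = 0.0138). Without MWA+2DG replicate 4 or replicate 6 it did not pass, at limma adjusted p of 0.0529 and 0.0548. After T lineage scaling it was at 0.0414 (limma adjusted p = 0.585), and at -0.0792 with Trat1 left out of that reference. Lat (ENSMUSG00000030742), the adaptor, was at 86.9, 90.3 and 76.6 FPKM in the MWA+PBS samples and at 118.8, 99.4 and 112.9 FPKM in the MWA+2DG samples. The replicates of Lat were scattered in both groups, and its log2 fold change was 0.38 (SE 0.09, adjusted p = 0.012 in limma). After T lineage scaling Lat was at 0.15 (limma adjusted p = 0.155), and without Trat1 Lat was at 0.0283 and Lck at 0.0587, neither past the test.

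Cd5 (ENSMUSG00000024669) was the least abundant of the 10 in MWA+PBS and had the second largest change. It was at 23.9, 22.4 and 22.6 FPKM in the MWA+PBS samples and at 35.5, 35.2 and 35.3 FPKM in the MWA+2DG samples. The MWA+2DG samples were nearly equal, with an SD of 0.15 FPKM, and the log2 fold change was 0.60 (SE 0.05, adjusted p = 9.6e-05 in limma).

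**Figure D2:**
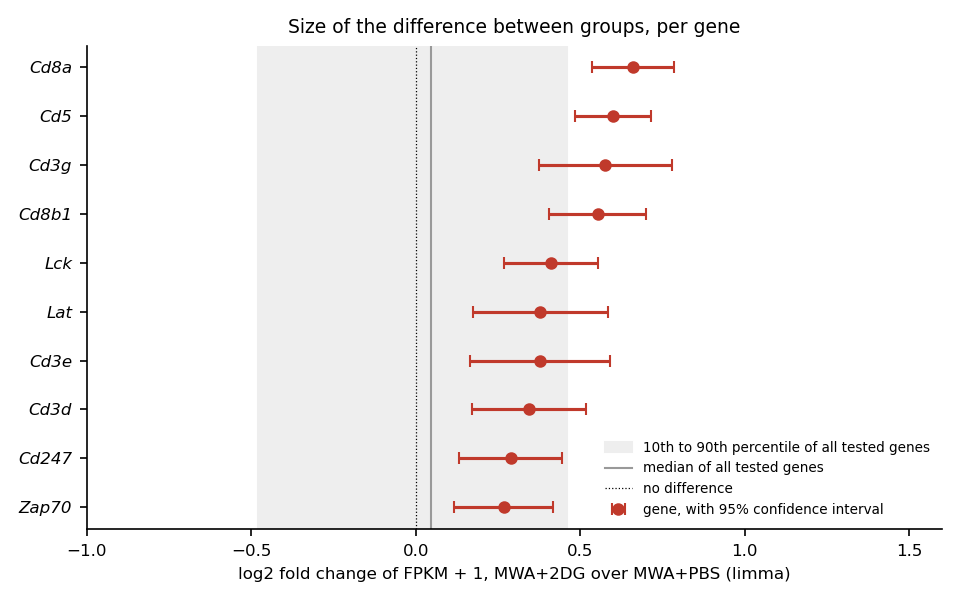
Log2 fold change of FPKM + 1 per gene, MWA+2DG over MWA+PBS, with its 95% confidence interval from limma, beside the median (0.05) and the span from the 10th to the 90th percentile (-0.48 to 0.46) of all tested genes. All 10 intervals lie above 0, and Cd8a, Cd5, Cd3g and Cd8b1 lie beyond the 90th percentile.

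The order of the levels was nearly the same in both groups. From high to low in MWA+PBS it was Cd8b1, Cd8a, Lck, Cd3e, Lat, Cd3g, Cd3d, Zap70, Cd247 and Cd5. The samples of neighbouring genes overlapped for Cd3e with Lat and for Cd3g with Cd3d, so the order of these pairs does not exceed the spread between samples, although within each of the 6 samples Cd3g was above Cd3d. In MWA+2DG, Cd5 stood beside Cd247, with overlapping samples, and the samples of Cd3g and Cd3d no longer overlapped. The genes were at the 84.8th to 99.4th percentile of tested genes by level with PBS and at the 91.1st to 99.6th with 2DG.

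Ratios within a sample do not depend on how a library was scaled, and 9 were compared between the groups. The log2 ratio of the co-receptor genes to the 3 CD3 chains (means of log2 FPKM) was 1.95, 1.97 and 2.00 in the MWA+PBS samples and 2.19, 2.07 and 2.18 in the MWA+2DG samples. It was the 1 ratio of 9 whose groups did not overlap, and its means differed by 0.17. With 3 samples against 3 an exact permutation test cannot go below 0.1, which this ratio reached (two-sided, 0.45 adjusted over the 9 ratios). The ratio of Cd8a to Cd8b1 averaged -0.51 ± 0.04 in MWA+PBS against -0.40 ± 0.07 in MWA+2DG (SD, n = 3, exact permutation p = 0.2). Relative to Cd3e, the other genes differed between groups by -0.11 for Zap70 to 0.24 for Cd5, and the groups overlapped for each of them. All of these ratios share Cd3e, which was highest in MWA+2DG replicate 5, where the other 9 genes were lowest within their group. In that sample the log2 ratio was -2.02 for Cd5 and -0.67 for Cd3g. In replicates 4 and 6 it was -1.73 and -1.78 for Cd5, and -0.30 and -0.29 for Cd3g. The highest MWA+PBS values were -1.99 for Cd5 and -0.32 for Cd3g, so for both genes the overlap rested on that sample. The differences of Cd3d, Cd247, Lck, Zap70 and Lat changed sign when 1 sample was left out, that of Zap70 to 0.0178 without MWA+2DG replicate 5. Lat relative to Cd3e had nearly the same mean in both groups, -0.20 ± 0.24 and -0.20 ± 0.28 (SD, n = 3, exact permutation p = 1.0), so a difference smaller than this spread could not be seen.

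**Figure D3:**
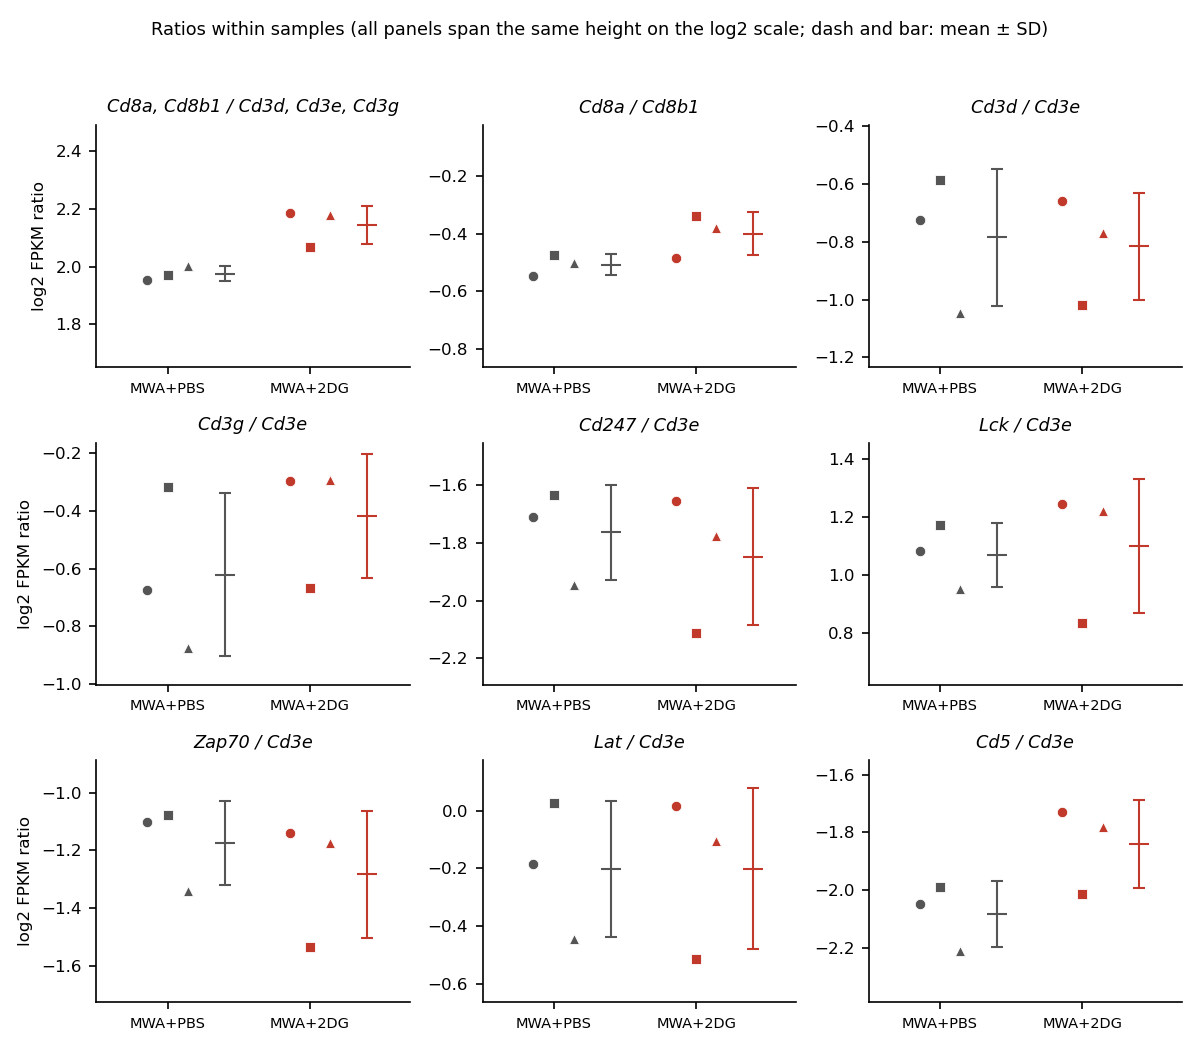
Log2 FPKM ratio within each sample for 9 pairs or groups of genes, with 1 point per sample and the mean ± SD of 3 samples. All panels span the same height, and the groups are apart only for Cd8a and Cd8b1 relative to Cd3d, Cd3e and Cd3g.

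Most constant region genes of the receptor chains were higher in MWA+2DG. Of 7 tested, 5 were higher and 0 lower, where 22.3% and 17.1% of all tested genes were, and their median log2 fold change was 0.51. After T lineage scaling 4 were higher and 0 lower, where 9.75% and 37.3% of all tested genes were. Trac, the alpha constant region, rose from 263.5 ± 12.4 to 389.1 ± 23.8 FPKM (SD, n = 3, limma adjusted p = 0.000594), a log2 fold change of 0.56. Trbc1 and Trbc2, the beta constant regions, had log2 fold changes of 0.51 and 0.57, and since they are nearly identical, their separate values are uncertain. Tcrg-C2, a gamma constant region, was low and rose from 5.52 ± 0.89 to 11.1 ± 0.631 FPKM (SD, n = 3, limma adjusted p = 0.000467). The 2 that did not pass, named after their values were seen, were Trdc and Tcrg-C4, with log2 fold changes of 0.20 and 0.06.

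Partners of Lck, Zap70 and Lat were divided. Of 18 tested, 9 were higher, 1 lower and 8 neither, beside 22.3% higher and 17.1% lower over all tested genes, with a median log2 fold change of 0.13, which T lineage scaling turned to -0.10, with 4 higher and 8 lower (9.75% and 37.3% over all genes). Rasgrp1, an activator of Ras, rose by 0.61 on the log2 scale, Themis, a T lineage adaptor, by 0.43, and Txk, a Tec family kinase, by 0.42. Ptprc, which encodes the CD45 phosphatase that primes Lck, rose by 0.41, and Fyn, the other Src family kinase of the receptor, by 0.34. Trat1, a transmembrane adaptor that associates with the receptor, fell from 7.18 ± 0.793 to 3.28 ± 0.205 FPKM (SD, n = 3, limma adjusted p = 0.000182). Lcp2 (the adaptor SLP-76) and Plcg1, a phospholipase, which assemble on Lat, were named after their values were seen, and had log2 fold changes of -0.08 and 0.10, not past the test.

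Among 18 genes that restrain signalling near the receptor, 8 were higher, 1 lower and 9 neither, again beside 22.3% and 17.1% over all genes, with a median of 0.17, which T lineage scaling turned to -0.02, with 4 higher and 4 lower (9.75% and 37.3% over all genes). Dok2 and Sit1, which are inhibitory adaptors, and Ptpn2, a phosphatase, each rose by 0.56 on the log2 scale, and Cd6, a relative of Cd5, by 0.45. Sla, an adaptor that promotes receptor turnover, fell by 0.19 on the log2 scale (limma adjusted p = 0.0338).

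**Figure D4:**
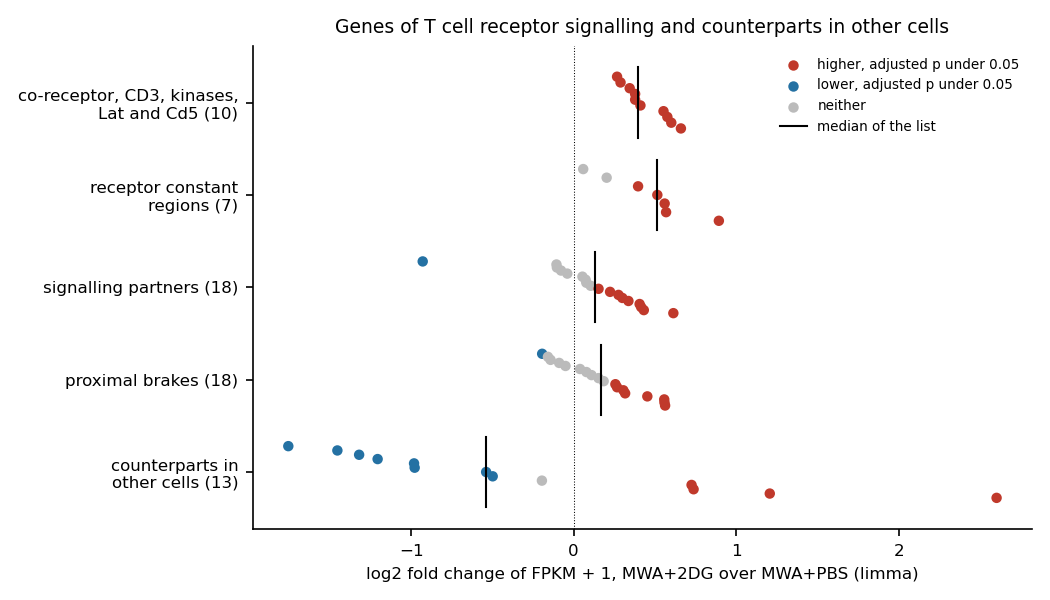
Log2 fold change of FPKM + 1, MWA+2DG over MWA+PBS, with 1 point per tested gene of 5 lists, red for higher and blue for lower at a limma adjusted p under 0.05, grey for neither, and a black line at each list's median. All 10 co-receptor and proximal genes are red, with a median of 0.39, and the signalling partners and brakes spread on both sides of 0.

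Genes that play the same parts in other blood cells were compared as a check. Of 13 counterparts tested, 4 were higher and 8 lower, where 22.3% and 17.1% of all tested genes were. After T lineage scaling 4 were higher and 9 lower, beside 9.75% and 37.3% of all genes. Cd79a and Cd79b, the B cell receptor's signalling chains, rose by 2.60 and 1.21 on the log2 scale. Of the signalling adaptors listed, Fcer1g and Tyrobp fell by 1.76 and 1.32. Hcst, an adaptor that is not particular to myeloid and natural killer cells, rose by 0.74. Cd72, a B cell inhibitory receptor, rose by 0.73, and the kinases Lyn and Btk fell by 1.45 and 1.21. Cd4, the other co-receptor, fell from 2.75 ± 0.16 to 1.66 ± 0.11 FPKM (SD, n = 3, limma adjusted p = 0.00252) and was far below Cd8a in all samples.

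Markers of other cell types moved with the groups as well, and their counts stand beside 22.3% higher and 17.1% lower over all tested genes. Summed neutrophil markers (8 genes, 8 higher) were 56.0 to 82.2 FPKM in the MWA+PBS samples and 1548 to 1729 FPKM in the MWA+2DG samples. B cell markers (6 of 7 tested higher) went from 10.3 to 11.5 FPKM up to 46.3 to 51.3 FPKM, and gamma delta T cell markers (3 of 5 higher) from 22.3 to 24.97 FPKM up to 36.03 to 39.3 FPKM. Of the latter, Blk, a kinase that B cells also express, went from a mean of 1.55 to 5.94 FPKM, and Trdc, the delta constant region, did not pass. Macrophage markers (9 of 9 lower) went from 603.1 to 662.4 FPKM down to 92.6 to 99.9 FPKM, and erythroid markers (7 of 7 lower) from 287.4 to 343.9 FPKM down to 66.5 to 84.0 FPKM. Dendritic cell markers, of which both tested were lower, were 9.1 to 10.2 and 3.51 to 4.31 FPKM. Natural killer cell markers, 1 of 2 tested lower, were 29.4 to 36.7 and 28.1 to 30.9 FPKM. The largest term of the natural killer sum was Gzma, so the sum mainly follows that gene. Gzma had a mean of 24.8 FPKM with PBS and 22.9 with 2DG, and did not pass. Ncr1 fell from a mean of 6.54 FPKM with PBS to 4.92 with 2DG, and was lower. CD4 T cell markers, 2 of 6 tested lower, were 19.3 to 20.5 and 18.7 to 20.01 FPKM. This sum held changes in both directions. Cd4 went from a mean of 2.75 to 1.66 FPKM and Zbtb7b from 4.57 to 2.91 FPKM, both lower. Icos, the largest term, went from 7.14 to 8.69 FPKM and did not pass. No marker found was at 0 in all samples. The 10 genes are not confined to CD8+ T cells. Those of the receptor complex also serve CD4 and gamma delta T cells, whose markers were found in every sample. Cd8a is used in some dendritic cells, Cd5 in some B cells, and Cd247, Lck and Zap70 in natural killer cells. The part of all those cells in the differences was not tested. Of the 5 CD8+ T cell markers listed, Cd8a, Cd8b1 and Cd3e are among the 10 genes and so give no separate check of the label. Of the others, Trac was high and rose. Runx3, a transcription factor of the CD8 lineage, went down from 46.4 ± 9.29 to 31.7 ± 3.86 FPKM (SD, n = 3, limma adjusted p = 0.0291), with overlapping samples.

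The size of the increase depended on the reference. When samples were scaled so that 12 T lineage genes outside the 10 had equal mean log2 values, the median log2 fold change over all genes moved from 0.05 to -0.15, and the split over all genes from 2773 higher and 2134 lower to 1215 and 4646. Under this scaling 5 of the 10 genes were higher and 0 lower, with a median of 0.17. Cd8a was at 0.43, Cd5 at 0.38, Cd3g at 0.35, Cd8b1 at 0.32 and Lck at 0.18, each past the test, and Lat, Cd3e, Cd3d, Cd247 and Zap70 were between 0.0414 and 0.15 and were not. Of the 12 reference genes, 7 were themselves higher, Trac and Trbc2 among them, and 1, Trat1, was lower. Without Trat1 in the reference, a choice made after the values were seen, the median over all genes was -0.26 and 4 genes were still higher (6.29% of all tested genes were), Cd8a at 0.31, Cd5 at 0.26, Cd3g at 0.23 and Cd8b1 at 0.20. These 4 passed the test under each alternative that was run, and the other 6 did not. With quantile normalization, median ratio scaling and scaling without the most abundant gene classes, all 10 were higher.

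**Figure D5:**
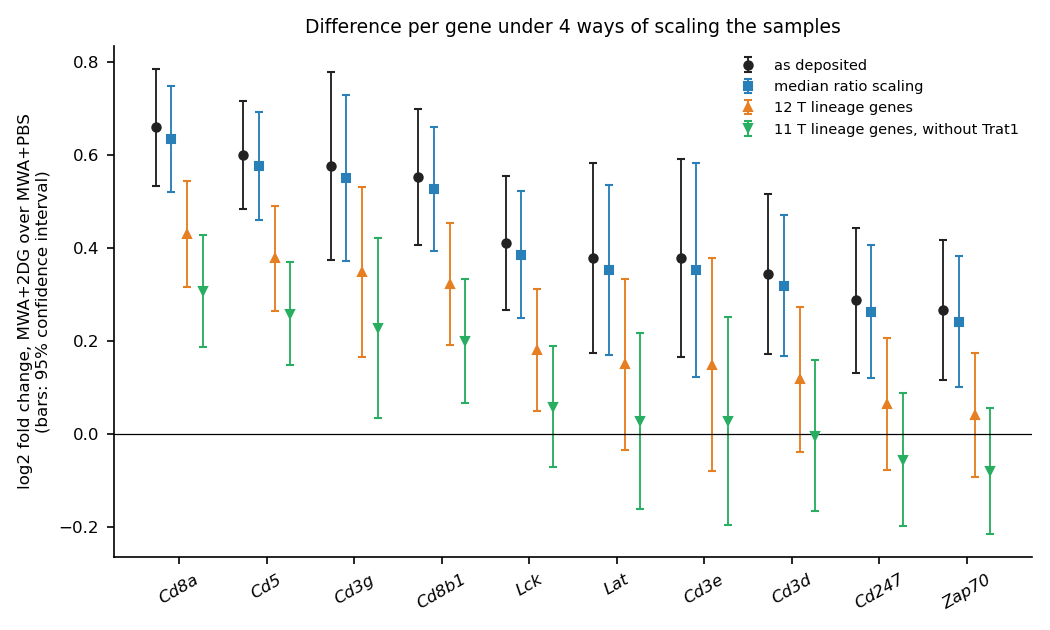
Log2 fold change per gene, MWA+2DG over MWA+PBS, with its 95% confidence interval, for the values as deposited, after median ratio scaling, and after scaling to 12 or 11 T lineage genes. Cd8a, Cd5, Cd3g and Cd8b1 stay above 0 with all of their intervals, and the other 6 reach 0 in at least 1 of the T lineage scalings.

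The profile over the 6 samples was shared with other genes. The 5 named genes outside the list whose centred log2(FPKM + 1) profile differed least from the mean profile of the 10 were Pced1a, Tmem9, Trim26, Adgrg5 and Il27ra, among 10044 compared. Their root mean square differences were 0.0147 to 0.0211 on the log2 scale, and those of the 10 genes themselves were 0.0411 for Lck to 0.145 for Cd3e. Since the mean profile mainly separates the 2 groups, this likeness rests on 6 samples in 2 clusters.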

How the data were processed

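Bulk RNA-seq of 6 samples of splenic CD8+ T cells was analysed, 3 MWA+PBS (replicates 1 to 3) and 3 MWA+2DG (replicates 4 to 6), grouped by their GEO labels. The authors computed the deposited FPKM values with HISAT2, StringTie and ballgown. The submitters' processing notes list cutadapt 1.9, HISAT2 2.0.4, UMI-tools, StringTie 1.3.4d and mm9, while the gene IDs are those of a later annotation, so coordinates are given only for RefSeq GRCm38.p6 promoters. FPKM holds no read counts, so depth is unknown. Each value is a share of its library, so that a gene falls when others take more of the library. Symbols were found for 28689 of 28773 IDs.

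Genes with a mean FPKM of at least 1 were tested on log2(FPKM + 1), a scale that understates the change of low genes, with limma 3.58.1 in R 4.3.3 (eBayes with a trend, two-sided, no covariates, Benjamini-Hochberg over all genes tested). Ratios were tested by exact permutation in SciPy 1.17.1. The genes, lists and rules were chosen with earlier results of these data known. All 10 genes are named. Of each related list the genes named had the largest changes past the test without overlap (at most 4 in each direction). Fyn, Ptprc, Trac and Cd4 were named whatever their values, and Trdc, Tcrg-C4, Lcp2 and Plcg1 after their values were seen. Markers of cell types were named outside this rule. Alternatives were scaling to T lineage genes, by median ratios, by quantiles or with the most abundant gene classes left out (mitochondrial, ribosomal protein, immunoglobulin and haemoglobin genes), a pseudocount of 0.1, no filter or one at a mean FPKM of 5, eBayes without a trend, arrayWeights, and leaving out each sample.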

Additional observations from a re-analysis of the deposited data

How the results depend on the processing

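With a pseudocount of 0.1, a filter at a mean FPKM of 5, scaling by quantiles, by median ratios or without the most abundant gene classes, eBayes without a trend and arrayWeights, all 10 genes were still called higher. Without a filter 9 were. T lineage scaling gave 5 and a median log2 fold change of 0.17. T lineage scaling without Trat1, chosen after seeing the data, gave 4 and a median of 0.0435, and reversed Cd247 (-0.0544), Cd3d (-0.00345) and Zap70 (-0.0792), none of them called. Both scalings lower log2 fold changes generally, by less for genes of low FPKM. Leaving out each sample gave 9 to 10 genes called higher and 0 lower, and a median of 0.39 to 0.46, highest without MWA+2DG replicate 5. It gave 0.15 to 0.21 for the co-receptor to CD3 ratio. It gave 0.0776 to 0.15 for Cd8a relative to Cd8b1. Relative to Cd3e it gave 0.0764 (without MWA+PBS replicate 3) to 0.35 (without MWA+PBS replicate 2) for Cd3g, 0.18 to 0.33 for Cd5, -0.18 to 0.0478 for Cd247, -0.16 to 0.0702 for Cd3d, -0.12 to 0.16 for Lat, -0.0421 to 0.16 for Lck and -0.19 to 0.0178 for Zap70. The cause of the changes between settings was not tested. No paired analysis was possible because MWA+PBS samples are numbered 1 to 3 and MWA+2DG samples 4 to 6, so that no number is shared. FPKM do not show how much of the spread is due to depth.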
